A study of Homo sapiens with 9 samples.

Results

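CID-1067700 (CID) was compared with its DMSO vehicle in 6 of the 9 arrays of the series, 3 CID arrays against 3 DMSO arrays, across all 17687 genes that the platform annotation names. The cells were ASCs of ASC52telo, a human mesenchymal stem cell line from adipose tissue immortalized with telomerase, that were being turned into keratinocyte-like cells (KLCs). All groups were kept for 10 days in differentiation media (DM), which is EpiLife medium with a growth supplement, BMP-4, EGF, ascorbic acid 2-phosphate, hydrocortisone and all-trans retinoic acid, on rat tail collagen type I. The DMSO group had 0.1% DMSO in addition, the CID group 40 μM CID, and the DM group of 3 arrays had neither and serves here as a further control. The share of DMSO in the wells with CID is not given in the sources used here. Every group therefore carried the same growth factors, hydrocortisone and retinoic acid, and undifferentiated ASCs were not analysed here. ASC52telo is a single established line, so that the spread between arrays holds no difference between donors. The deposit calls the arrays of a group biological replicates without saying what set them apart, so the p-values reflect the variation among these samples alone and that variation may be technical.

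Rab7 is a small GTPase of late endosomes and lysosomes. In its GTP-bound state it recruits effectors that move these organelles and let them fuse, and the degradation of internalized receptors, the maturation of autophagosomes and the export of sterol from lysosomes all use this route. CID competes with guanine nucleotides for their site on Rab7 and on other small GTPases, so that it acts on protein and not on the transcript. ASCs are stromal cells that secrete much of the matrix around them, while keratinocytes are marked by keratins, desmosomes and the proteins of the cornified envelope.

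Transcripts were measured on Clariom S Human arrays, and all values here are on the log2 scale, on which a difference of 1 is a 2-fold change in linear signal. The median of an array lay between 7.06 and 7.14, and within a group the arrays correlated at 0.994 to 0.995 (Pearson, over probe sets, which do not count as replicates). The number of arrays limits the precision. RAB7A, the gene of the targeted GTPase, measured 16.35, 16.20 and 16.28 on DMSO arrays 1, 2 and 3 and 16.35, 16.30 and 16.41 on CID arrays 1, 2 and 3, the order in which all values below are given. The groups overlapped, and its log2 fold change (log2FC) was 0.08 with a 95% interval of -0.16 to 0.32 (limma, adjusted p = 0.802).

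A differentially expressed gene (DEG) is taken as a probe set with an adjusted p under 0.05 (limma, Benjamini-Hochberg over 21448 probe sets) and a linear fold change of at least 1.5. CID against DMSO gave 517 DEGs (2.41% of all probe sets), of which 143 were higher with CID (0.667%) and 374 lower (1.74%). Among the named genes, 455 were DEGs (2.57%), 117 of them higher (0.662%) and 338 lower (1.91%). At least 2-fold changes were called for 29 higher and 146 lower genes, and at least 4-fold changes for 3 higher and 15 lower genes. For all 455 named DEGs the CID arrays lay on 1 side of all DMSO arrays, which was also so for 21.9% of all named genes. The median log2 fold change of all named genes was 0.01. The tests rest on few arrays: 181 of the 455 named DEGs were called in each of the 9 fits that left out 1 array, and 10 were called in none of them.

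**Figure D1:**
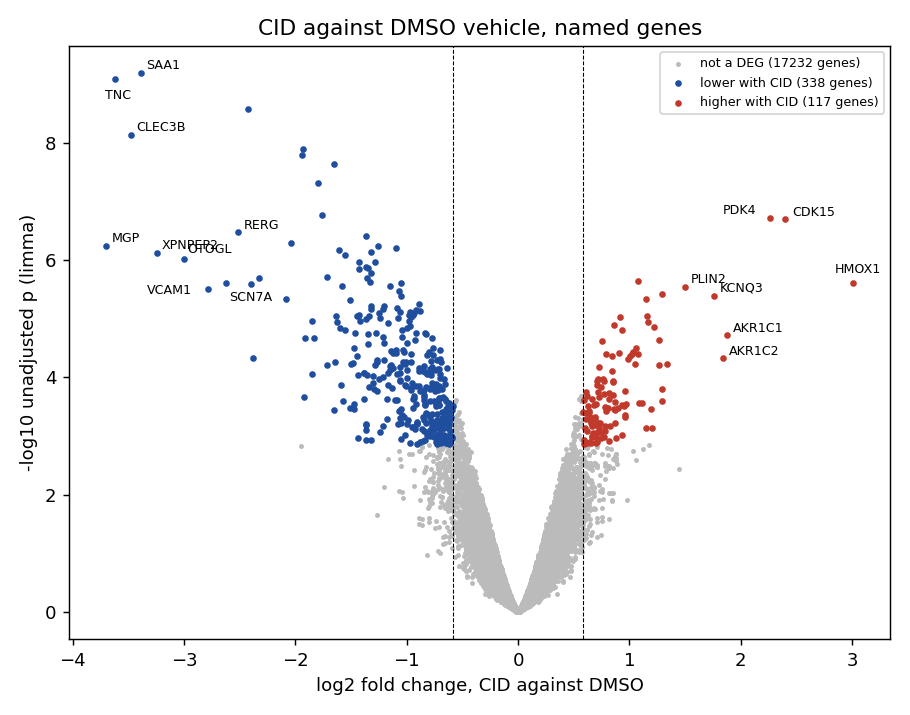
Each point is 1 named gene, with the log2 fold change of CID against DMSO on the x axis and minus log10 of the unadjusted limma p on the y axis; coloured points are the 117 higher and 338 lower DEGs. HMOX1, CDK15 and PDK4 lie farthest to the right, and MGP, TNC, CLEC3B and SAA1 farthest to the left.

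The 5 lowest genes encode secreted or surface proteins. MGP (matrix Gla protein, which binds calcium in the matrix and restrains calcification) measured 11.27, 12.19 and 11.57 with DMSO and 7.56, 8.90 and 7.48 with CID, a 13-fold lower level (log2FC -3.70, SE 0.36, adjusted p = 0.000662). TNC (tenascin C, a large matrix glycoprotein of wounds and developing tissue) measured 13.05, 13.69 and 13.72 with DMSO and 9.80, 9.92 and 9.89 with CID (log2FC -3.62, SE 0.18, adjusted p = 5.84e-06). CLEC3B (tetranectin, a plasminogen-binding lectin) fell from 9.87, 10.88 and 10.34 to 7.0, 6.64 and 7.02 (log2FC -3.48, SE 0.22, adjusted p = 2.63e-05). In all 3 genes the lowest DMSO array stood above the highest CID array by more than the whole range within either group. SAA1, an acute phase protein, fell from 12.93, 13.50 and 13.62 to 10.00, 9.92 and 9.96 (log2FC -3.39, SE 0.17, adjusted p = 5.84e-06). XPNPEP2, a membrane aminopeptidase that cleaves bradykinin, measured 10.08, 8.54 and 9.51 with DMSO and 6.30, 5.99 and 6.10 with CID (log2FC -3.25, SE 0.32, adjusted p = 0.000709). OTOGL, which encodes an otogelin-like secreted protein, had a log2 fold change of -3.0 (adjusted p = 0.00081). Receptors and signalling proteins followed, among them SCN7A, a sodium channel, at -2.62 (adjusted p = 0.00137), RERG, a Ras-like GTPase, at -2.51 (adjusted p = 0.000517), ROS1, a receptor tyrosine kinase, at -2.32 (adjusted p = 0.00128), and SLITRK1, a neuronal adhesion protein, at -1.94 (adjusted p = 4.32e-05).

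The higher side was smaller. HMOX1, the inducible heme oxygenase that breaks heme down to biliverdin, iron and carbon monoxide, measured 8.40, 7.36 and 7.59 with DMSO and 11.19, 10.46 and 10.73 with CID, 8.06-fold higher (log2FC 3.01, SE 0.34, adjusted p = 0.00137). CDK15, a cyclin-dependent kinase, rose from 6.20, 6.05 and 6.51 to 8.38, 8.66 and 8.92 (log2FC 2.40, SE 0.21, adjusted p = 0.000334). PDK4, the kinase that shuts pyruvate dehydrogenase when fat is burned, rose from 6.36, 6.13 and 6.60 to 8.32, 8.60 and 8.95 (log2FC 2.26, SE 0.19, adjusted p = 0.000334). The groups stood well apart in each of these genes, with the CID arrays spanning less than 1 log2 unit. KCNQ3, a potassium channel subunit, followed at 1.76 (adjusted p = 0.00178) and GRAMD4 at 1.27 (adjusted p = 0.00774). All genes named in this and the foregoing paragraph kept their call when any 1 array was left out.

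**Figure D2:**
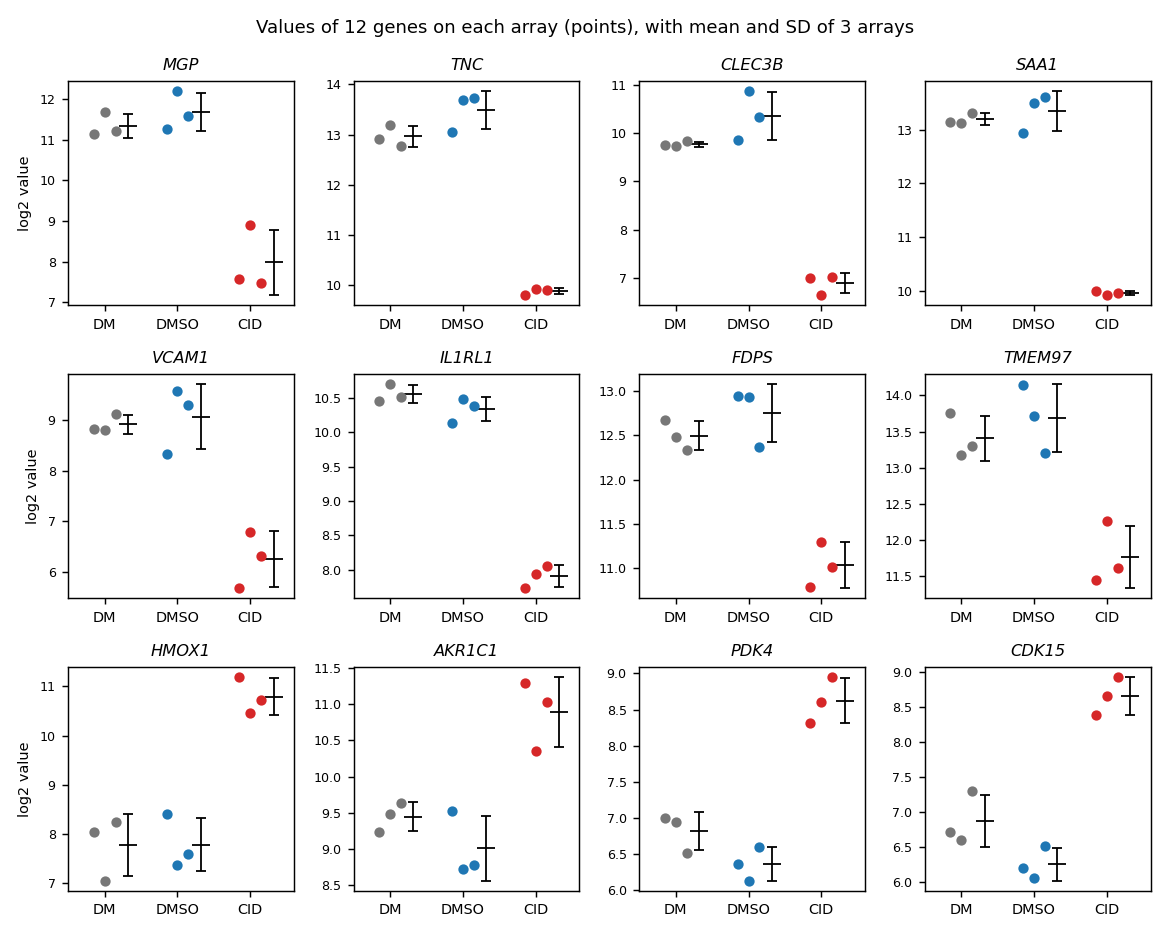
Log2 values of 12 genes (y axis) on each DM, DMSO and CID array (points), with the mean and SD of the 3 arrays of a group as a bar. In each gene the 3 CID arrays lie on 1 side of the 3 DMSO arrays and of the 3 DM arrays.

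Among the gene lists, matrix proteins held the most lower DEGs. Of 60 measured matrix glycoproteins and proteoglycans, 23 fell (38.3%) and 3 rose, with a median log2 fold change of -0.36 against 0.01 over all named genes. PRG4 (lubricin, a boundary lubricant of joints) measured 12.94, 12.22 and 12.27 with DMSO and 10.37, 9.82 and 10.05 with CID (log2FC -2.40, SE 0.27, adjusted p = 0.00137). VIT (vitrin, a matrix protein with von Willebrand domains) fell from 13.40, 13.08 and 13.25 to 11.40, 11.23 and 11.30 (log2FC -1.93, SE 0.13, adjusted p = 3.97e-05). The small leucine-rich proteoglycans of collagen fibrils went down by less: LUM (lumican) had a log2 fold change of -1.20 (adjusted p = 0.00709), OGN (osteoglycin) of -1.06 (adjusted p = 0.00926) and DCN (decorin) of -0.70 (adjusted p = 0.00587). DCN measured 16.05, 16.01 and 16.09 with DMSO and 15.37, 15.35 and 15.33 with CID. OGN measured 9.64, 9.71 and 9.52 with DMSO and 8.99, 8.37 and 8.32 with CID, but 8.80, 8.59 and 8.84 with DM, among the CID values, and CID against DM was -0.18 (adjusted p = 0.722). SPARC, a collagen-binding glycoprotein, was at -0.96 (adjusted p = 0.00258). The exceptions were FBLN1 (fibulin 1, of elastic fibres), which rose from 12, 12.02 and 12.08 to 12.96, 13.05 and 12.90 (log2FC 0.94, SE 0.13, adjusted p = 0.00346), BGN (biglycan) at 0.64 (adjusted p = 0.0229) and THBS2 (thrombospondin 2) at 0.64 (adjusted p = 0.048). BGN lost its call without CID 1, CID 2, CID 3, DMSO 2 or DMSO 3 and THBS2 without CID 1, CID 2, CID 3, DMSO 1, DMSO 2, DMSO 3, DM 1 or DM 3, at adjusted p values of up to 0.083 and 0.135, and both with the DMSO and CID arrays alone (0.0553 and 0.0754). Against DM, where 1.5% of all named genes were DEGs (0.407% higher and 1.1% lower), 10 of the 60 matrix genes were lower DEGs and 2 higher, and 4 of the 27 collagen chains described next were lower and 0 higher.

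Of 27 measured collagen chains, 7 fell (25.9%) and 0 rose, with a median of -0.24. COL8A1, a short-chain collagen of basement membranes, measured 12.59, 12.70 and 12.97 with DMSO and 10.98, 10.78 and 11.23 with CID (log2FC -1.76, SE 0.15, adjusted p = 0.000334). COL1A1, a chain of fibrillar collagen I, fell from 10.83, 11.16 and 10.86 to 9.80, 9.57 and 9.77 (log2FC -1.24, SE 0.16, adjusted p = 0.00258), and COL5A2, of the collagen V that starts fibrils, from 11.08, 11.68 and 11.01 to 10.13, 9.99 and 10.05 (log2FC -1.20, SE 0.17, adjusted p = 0.00468). These 3 chains kept their call without any 1 array. COL4A1 (basement membrane), COL5A1, COL12A1 and COL1A2 were at -0.99, -0.85, -0.82 and -0.77 (adjusted p = 0.029, 0.0178, 0.0129 and 0.0324). COL4A1 lost its call without CID 1, CID 3, DMSO 2 or DMSO 3 (adjusted p up to 0.11), COL5A1 without CID 1, CID 2, CID 3, DMSO 2 or DMSO 3 (up to 0.0749), COL12A1 without CID 1, DMSO 2 or DMSO 3 (up to 0.061) and COL1A2 without any CID or DMSO array (up to 0.119). Enzymes that work on matrix held smaller shares of lower DEGs than the collagen chains, but larger ones than the 1.91% of all named genes. Of 35 proteases and inhibitors 5 fell (14.3%). Among them ADAMTS5 and ADAMTS1, which cleave large proteoglycans, were at -1.21 and -0.99 (adjusted p = 0.00228 and 0.00338). Of 24 collagen-processing enzymes 2 fell (8.33%). HAS2, the main synthase of hyaluronan, was the only DEG of 11 hyaluronan genes (9.09%). It went from 10.70, 10.75 and 10.13 to 9.20, 9.29 and 9.0 (log2FC -1.36, SE 0.18, adjusted p = 0.00264).

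Cells hold matrix through integrins and pull on it with actin fibres. Of 19 integrin subunits, 2 fell (10.5%) and 1 rose (5.26%), beside 1.91% and 0.662% of all named genes. ITGB8, whose integrin releases active TGF-beta from its latent form, measured 13.32, 13.87 and 13.92 with DMSO and 11.05, 11.93 and 11.88 with CID, 4.24-fold lower (log2FC -2.08, SE 0.25, adjusted p = 0.00183). The others were ITGA11, a collagen receptor subunit, at -0.95 (adjusted p = 0.0333) and ITGA10, another, at 0.82 (adjusted p = 0.0151). ITGA11 lost its call without any CID or DMSO array (adjusted p up to 0.123) and ITGA10 without CID 2, CID 3 or DMSO 2 (up to 0.0631), and the CID arrays of ITGA10 overlapped those of DM (0.23 against DM, adjusted p = 0.578). Of 31 contractile and actin-bundle genes, 5 fell (16.1%) and 0 rose, with a median of -0.33. TAGLN (transgelin, an actin-binding protein of smooth muscle) measured 13.93, 14.27 and 14.05 with DMSO and 12.78, 12.77 and 12.42 with CID (log2FC -1.43, SE 0.15, adjusted p = 0.00102). LMOD1 (leiomodin, an actin nucleator) was at -1.38 (adjusted p = 0.00926) and TPM2 (tropomyosin) at -0.73 (adjusted p = 0.00709). Against DM, LMOD1 and TPM2 were at -0.82 and -0.45 (adjusted p = 0.129 and 0.0851). There 1 of the 31 genes was a lower DEG, beside 1.1% of all named genes. ACTA2, smooth muscle actin, was not a DEG, with a 95% interval of its log2 fold change from -0.57 to 0.17.

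**Figure D3:**
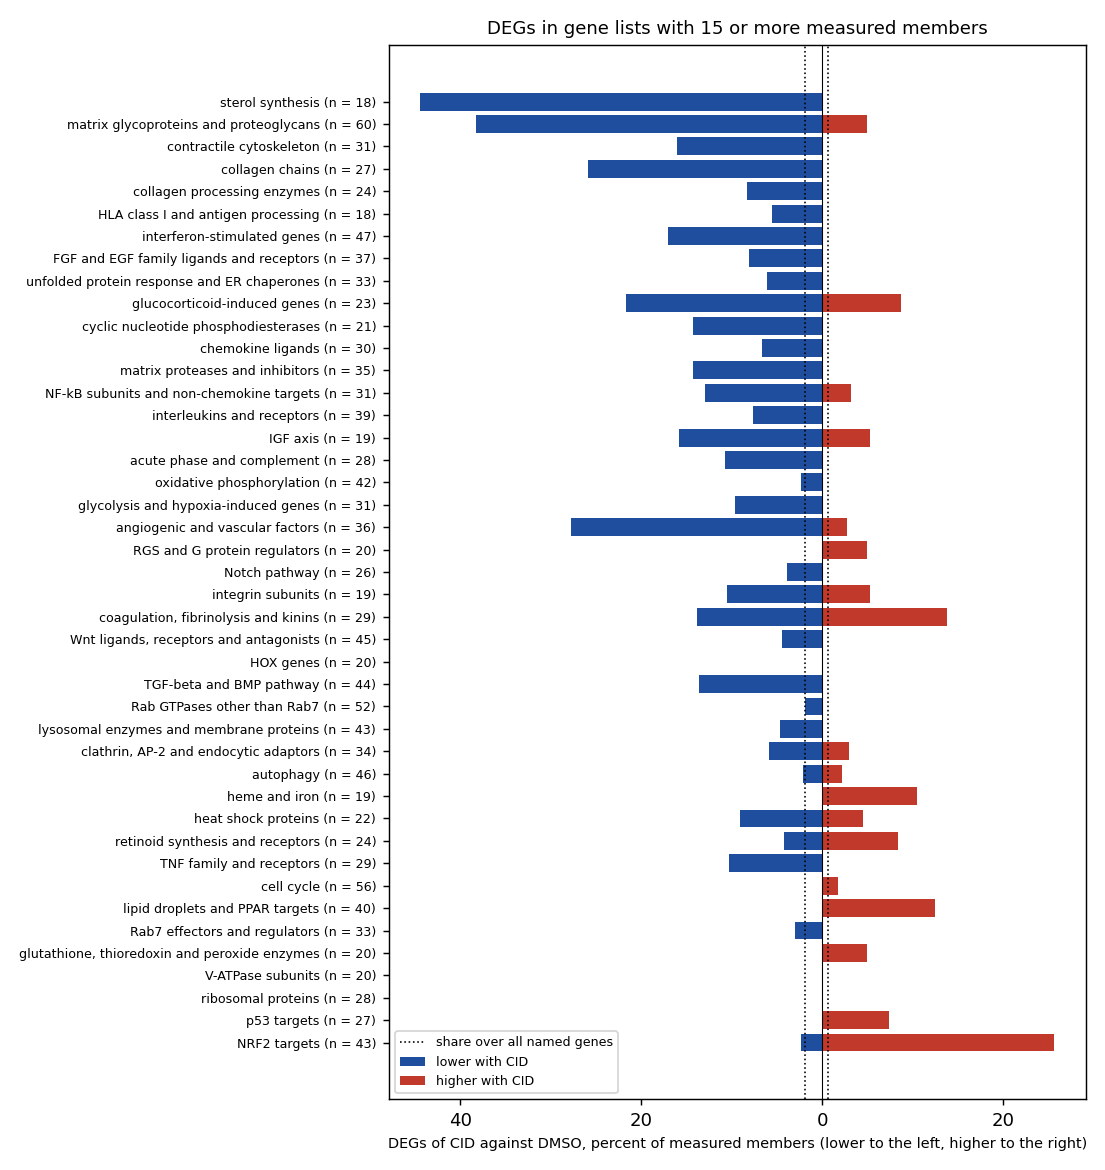
Each row is 1 gene list with at least 15 measured members, and bars give the percent of these that were lower (left) or higher (right) DEGs of CID against DMSO, with dotted lines at the shares over all named genes. The 5 longest bars are 44.4% lower in sterol synthesis, 38.3% lower in matrix glycoproteins, 27.8% lower in angiogenic factors, 25.9% lower in collagen chains and 25.6% higher in NRF2 targets.

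Of the enzymes of sterol synthesis, 8 were lower DEGs and 10 did not pass the test. Cells make cholesterol from acetyl-CoA through mevalonate, and the transcription factor SREBP-2 turns on these enzymes when sterol in the endoplasmic reticulum is low. The 8 were 44.4% of the 18 measured, 0 rose, and 3 of the 8 were called in every fit that left out 1 array. The median was -0.62 against 0.01 over all named genes, and 2 of the 18 values were above 0. Against DM, 5 of the 18 were lower DEGs and 0 higher, beside 1.1% and 0.407% of all named genes. FDPS (farnesyl diphosphate synthase, at the branch to sterols and prenyl groups) measured 12.95, 12.93 and 12.37 with DMSO and 10.79, 11.30 and 11.02 with CID, 3.28-fold lower (log2FC -1.71, SE 0.19, adjusted p = 0.00128). ACAT2 (acetoacetyl-CoA thiolase, at the start of the path) fell from 11.52, 11.27 and 10.54 to 9.12, 9.79 and 9.5 (log2FC -1.64, SE 0.26, adjusted p = 0.00739), and MVD (mevalonate diphosphate decarboxylase) from 10.97, 10.81 and 10.40 to 9.60, 9.71 and 9.37 (log2FC -1.17, SE 0.19, adjusted p = 0.00917). These calls held without any 1 array. IDI1 (isopentenyl diphosphate isomerase) had a log2 fold change of -1.31 (adjusted p = 0.00976) and HMGCS1 (HMG-CoA synthase) of -1.27 (adjusted p = 0.0143). IDI1 lost its call without CID 3 (adjusted p = 0.0505) and HMGCS1 without DMSO 1 or DMSO 2 (up to 0.0652). The enzymes after squalene stood close to the threshold: CYP51A1, EBP and LSS were at -0.74, -0.70 and -0.66 (adjusted p = 0.0468, 0.0377 and 0.0308). Without any array other than CID 2 the call of CYP51A1 and that of EBP were lost (adjusted p up to 0.164 and 0.138), and LSS was lost without CID 1, CID 2, CID 3, DMSO 1 or DMSO 2 (up to 0.116). A fit of the DMSO and CID arrays alone ended the calls of these 3 as well (adjusted p = 0.0936, 0.0864 and 0.0587). SQLE (squalene epoxidase) and DHCR7, both uncalled, had intervals of -1.04 to -0.12 and -1.12 to -0.04.

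Sterol uptake and its control gave 4 lower (33.3%) and 0 higher DEGs of 12 measured genes, beside 1.91% and 0.662% of all named genes. The median of the list was -0.61. Against DM, 2 of the 12 were lower DEGs and 0 higher. TMEM97, a sterol-regulated membrane protein that limits NPC1 and is known as the sigma-2 receptor, measured 14.14, 13.71 and 13.20 with DMSO and 11.45, 12.26 and 11.61 with CID (log2FC -1.91, SE 0.27, adjusted p = 0.00404), and kept its call without any 1 array. INSIG1, which holds SREBP in the endoplasmic reticulum, was at -0.72, SREBF2, the gene of SREBP-2 itself, at -0.70, and LIPA, the lysosomal lipase that frees cholesterol from its esters, at -0.72 (adjusted p = 0.0421, 0.0425 and 0.0449). All 3 were fragile: INSIG1 lost its call without CID 1, CID 3, DMSO 1, DMSO 2, DMSO 3, DM 1 or DM 3 (adjusted p up to 0.146), SREBF2 without CID 1, CID 2, CID 3, DMSO 1, DMSO 2, DM 2 or DM 3 (up to 0.149) and LIPA without each array in turn (up to 0.155). The fit of the DMSO and CID arrays alone did not call them either (adjusted p = 0.072, 0.0665 and 0.096). NPC1, which exports cholesterol from lysosomes, was not called, with an interval of -0.06 to 0.46. ABCA1, which carries cholesterol out of the cell and is turned on by the oxysterol receptor LXR, was at 0.66 (adjusted p = 0.0411), the only DEG of 13 LXR targets, and lost its call without any array other than DMSO 3 (up to 0.142) and with the DMSO and CID arrays alone (0.0866). Of 14 fatty acid synthesis genes 2 fell (14.3%). SCD5, a desaturase, was at -1.01 (adjusted p = 0.00739), and ACSS2, which makes acetyl-CoA from acetate, at -1.04 (adjusted p = 0.0252). ACSS2 was lost without CID 1, CID 3, DMSO 1 or DMSO 2 (up to 0.0998).

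Promoters of 3 of these genes are printed to show 2 motifs. One is a box common among the sterol synthesis enzymes, called or not, and the other an element that these enzymes did not hold. RefSeq sequence of GRCh38.p14 was read from 250 bases before to 50 bases after each transcription start, and 16 of the 18 sterol synthesis enzymes had an entry. The letters CCAAT, the box bound by NF-Y, lay on either strand in 12 of those 16 promoters (75%), against 36.4% of the promoters of the 14250 named genes with an entry. Of the 7 lower enzymes with an entry 5 held the box (71.4%), so that it did not set the lower enzymes apart from the list. A sterol response element spelled TCACNCCAC, in which N is any base, was in 0 of the 16 and in 1.15% of all 27305 promoters, and SREBF2 held it. A match is a description and not a site, and its absence says only that these letters are not in the window. Capitals mark the CCAAT box, read on either strand (ATTGG on the other), in FDPS (chr1:155308616-155308915, plus strand), TMEM97 (chr17:28318950-28319249, plus strand) and SREBF2 (chr22:41832855-41833154, plus strand), and in SREBF2 also the sterol response element, which comes first.
FDPS: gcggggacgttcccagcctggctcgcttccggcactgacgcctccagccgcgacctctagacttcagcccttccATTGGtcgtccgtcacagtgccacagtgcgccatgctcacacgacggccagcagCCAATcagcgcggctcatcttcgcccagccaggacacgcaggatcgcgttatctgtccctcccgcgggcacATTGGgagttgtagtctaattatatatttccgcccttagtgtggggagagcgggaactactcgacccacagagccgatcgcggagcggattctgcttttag
TMEM97: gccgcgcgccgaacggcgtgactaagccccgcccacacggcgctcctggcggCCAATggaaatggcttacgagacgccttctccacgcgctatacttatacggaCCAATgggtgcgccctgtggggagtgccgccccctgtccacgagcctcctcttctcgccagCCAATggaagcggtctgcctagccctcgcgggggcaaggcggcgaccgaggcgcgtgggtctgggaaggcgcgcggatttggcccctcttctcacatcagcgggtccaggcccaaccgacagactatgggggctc
SREBF2: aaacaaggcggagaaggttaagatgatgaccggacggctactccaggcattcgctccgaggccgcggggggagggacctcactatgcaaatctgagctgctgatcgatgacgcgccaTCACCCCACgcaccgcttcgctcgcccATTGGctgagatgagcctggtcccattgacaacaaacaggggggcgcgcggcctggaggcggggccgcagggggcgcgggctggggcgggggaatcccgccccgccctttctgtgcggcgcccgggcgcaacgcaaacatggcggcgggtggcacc

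**Figure D4:**
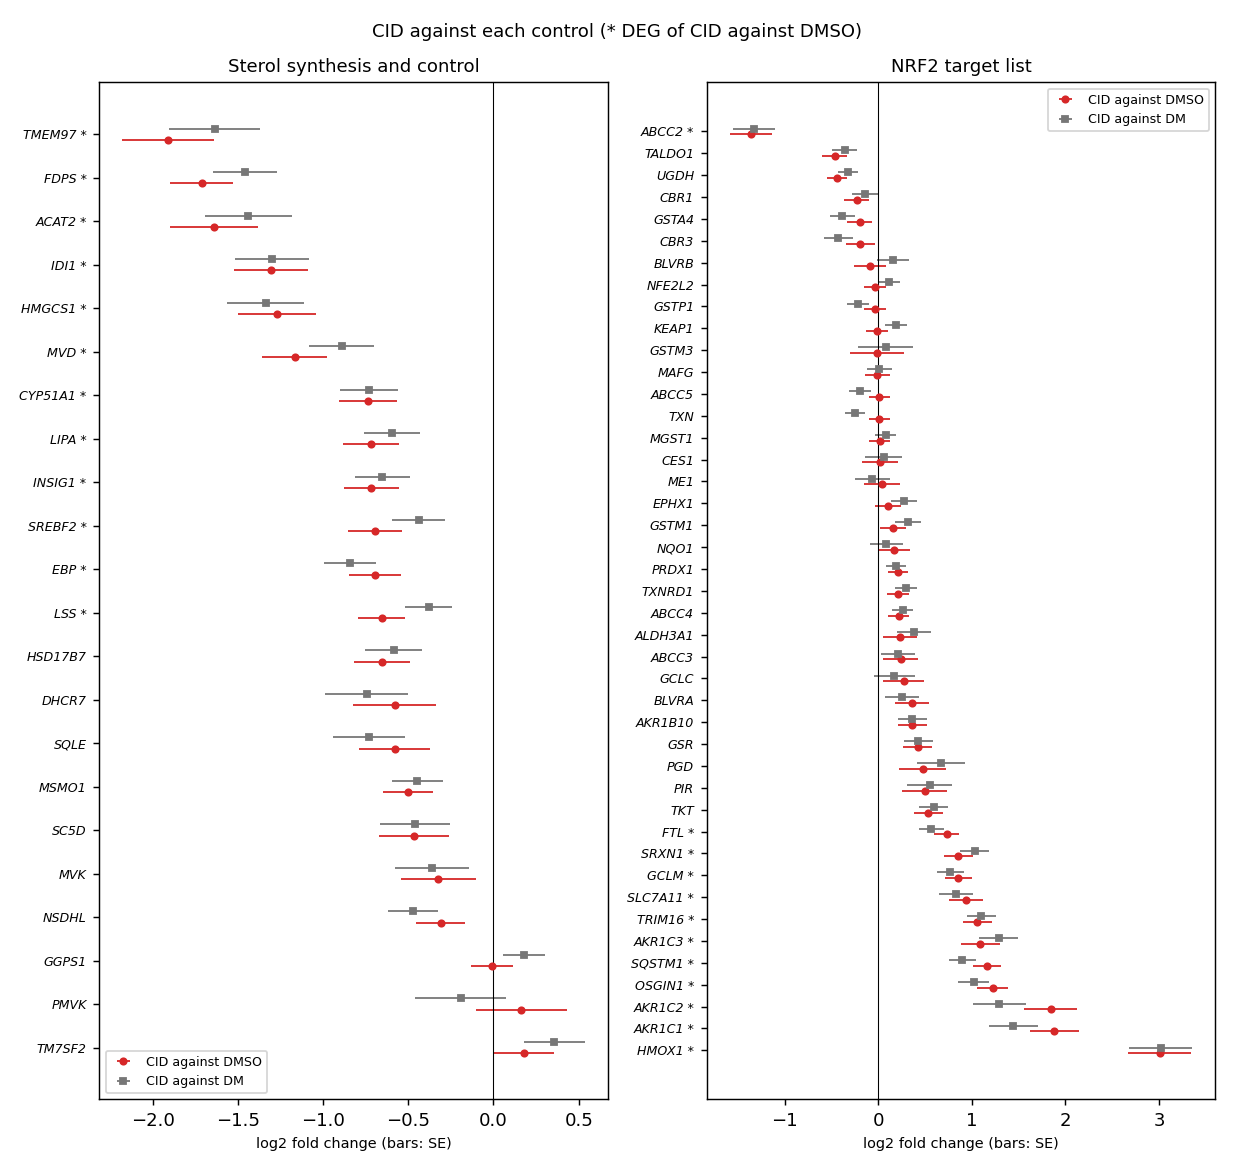
Log2 fold changes (x axis) of CID against DMSO (circles) and of CID against DM (squares), which share the CID arrays, with bars for the SE, for genes of sterol synthesis and control on the left and the NRF2 target list on the right. An asterisk marks the DEGs of CID against DMSO, of which TMEM97 and FDPS lie lowest and HMOX1 highest.

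Targets of NRF2, the factor that answers electrophiles and oxidants, held 11 higher DEGs of 43 (25.6%) and 1 lower, with a median of 0.21. HMOX1, given above, was the highest. SQSTM1 (p62, an autophagy receptor that also frees NRF2 from its inhibitor) rose from 13.90, 13.53 and 13.96 to 15.08, 14.90 and 14.89 (log2FC 1.16, SE 0.15, adjusted p = 0.00257), OSGIN1 (an oxidative stress-induced growth inhibitor) from 8.12, 8.03 and 8.01 to 9.63, 9.17 and 9.03 (log2FC 1.22, SE 0.16, adjusted p = 0.00325), and TRIM16 from 9.30, 8.92 and 8.85 to 10.17, 9.93 and 10.15 (log2FC 1.06, SE 0.16, adjusted p = 0.00545). Aldo-keto reductases, which reduce steroid and lipid carbonyls, were high among them. AKR1C1 measured 9.53, 8.73 and 8.78 with DMSO and 11.29, 10.36 and 11.03 with CID (log2FC 1.88, SE 0.26, adjusted p = 0.00395), AKR1C2 rose from 9.14, 7.83 and 8.41 to 10.64, 9.95 and 10.32 (log2FC 1.84, SE 0.28, adjusted p = 0.00685) and AKR1C3 was at 1.09 (adjusted p = 0.0194). These reductases are nearly identical in sequence, so that their probe sets may share signal and the split between them is uncertain. Glutathione and cystine supply was represented by GCLM (the modifier of glutamate-cysteine ligase) at 0.86 and SLC7A11 (the cystine transporter) at 0.94 (adjusted p = 0.0116 and 0.0199). SRXN1 (sulfiredoxin) was at 0.86 (adjusted p = 0.0163), and FTL (ferritin light chain), of iron storage, at 0.73 (adjusted p = 0.0166). AKR1C3 was lost without CID 1, CID 3, DMSO 2 or DMSO 3 (adjusted p up to 0.0826), GCLM without CID 1, DMSO 2 or DMSO 3 (up to 0.0542), SLC7A11 without CID 1, CID 2, CID 3, DMSO 2 or DMSO 3 (up to 0.0848), SRXN1 without CID 1, CID 2, DMSO 2 or DMSO 3 (up to 0.0688) and FTL without CID 1, CID 2, CID 3, DMSO 2 or DMSO 3 (up to 0.064).

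Other NRF2 targets were not called. NQO1 (a quinone reductase) measured 14.06, 13.69 and 13.45 with DMSO and 14.11, 13.80 and 13.80 with CID, with an interval of -0.21 to 0.55, and TXNRD1 (thioredoxin reductase) had an interval of -0.04 to 0.47. Both intervals stay below 1.5-fold. ABCC2, an efflux pump counted among these targets, went the other way, from 9.82, 9.04 and 9.17 to 8.31, 7.69 and 7.95 (log2FC -1.36, SE 0.23, adjusted p = 0.00961). Metallothioneins, which answer metals and oxidants by another factor, gave 0 DEGs of 11, a list too short to differ from the 2.57% of all named genes. The core of the antioxidant response element, TGACNNNGC on either strand, was in 29.4% of the 34 promoters of the list with an entry and in 13.6% of all promoters, and among the 10 DEGs with an entry GCLM alone held it.

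Genes of lipid storage and PPAR, which senses fatty acids, gave 5 higher (12.5%) and 0 lower DEGs of 40, beside 0.662% and 1.91% of all named genes. The median of the list was 0.08. PLIN2, the coat protein of lipid droplets, measured 13.30, 12.85 and 13.42 with DMSO and 14.72, 14.75 and 14.61 with CID, 2.83-fold higher (log2FC 1.5, SE 0.17, adjusted p = 0.00143). ANGPTL4, a secreted inhibitor of lipoprotein lipase, rose from 5.40, 5.25 and 5.52 to 6.34, 6.48 and 6.58 (log2FC 1.08, SE 0.12, adjusted p = 0.00137). Its DMSO mean of 5.39 lay at the upper limit of the dimmest 33.3% of probe sets, so that the size of its difference is uncertain. The calls of PLIN2, ANGPTL4 and PDK4, the last given above, held without any 1 array. ACADVL (an acyl-CoA dehydrogenase of fat oxidation) and GPAT3 (an acyltransferase of triglyceride synthesis) were at 0.83 and 0.81 (adjusted p = 0.0328 and 0.0215). ACADVL was lost without CID 1, CID 3, DMSO 1, DMSO 2, DMSO 3 or DM 1 (adjusted p up to 0.116) and with the DMSO and CID arrays alone (0.0591), and GPAT3 without CID 2, CID 3, DMSO 2 or DMSO 3 (up to 0.088). Of 17 adipocyte markers, 0 were DEGs, a list too short to differ from the 2.57% of all named genes. Of the 17, 9 were among the dimmest.

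Several inflammatory genes were lower. VCAM1, the adhesion molecule that captures leukocytes, measured 8.33, 9.55 and 9.28 with DMSO and 5.70, 6.79 and 6.32 with CID, 6.88-fold lower (log2FC -2.78, SE 0.32, adjusted p = 0.00152). IL1RL1 (ST2, the receptor of interleukin 33) fell from 10.14, 10.49 and 10.38 to 7.74, 7.94 and 8.05 (log2FC -2.43, SE 0.14, adjusted p = 1.43e-05), and TNFSF10 (TRAIL, a death ligand) from 8.67, 8.19 and 8.76 to 7.11, 6.82 and 6.19 (log2FC -1.83, SE 0.26, adjusted p = 0.00404). Their families held 7.69% to 16.1% DEGs, beside 2.57% of all named genes. Of 31 NF-kB subunits and targets other than chemokines 4 fell and 1 rose, and of 39 interleukins and receptors 3 fell. Of 29 TNF family genes 3 fell, and of 28 acute phase and complement genes 3 fell. The median log2 fold changes of these lists were -0.07, -0.07, 0.06 and -0.055 in that order, against 0.01 over all named genes. A few members therefore fell in lists that lay near 0. TNFAIP8, an apoptosis regulator, was at -1.56 (adjusted p = 0.00346), LIFR, the receptor of leukemia inhibitory factor, at -1.10 (adjusted p = 0.00615), TNFRSF11B (osteoprotegerin) at -0.92 (adjusted p = 0.00431) and SERPING1, the C1 inhibitor of complement, at -1.32 (adjusted p = 0.00117). STAT3, which carries signals of the interleukin 6 family, passed the p threshold and missed the fold threshold, at -0.55 (adjusted p = 0.0383).

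Of 30 chemokine ligands 2 were lower DEGs against DMSO. CXCL6, a neutrophil attractant, measured 6.68, 6.89 and 6.66 with DMSO and 5.64, 5.73 and 5.66 with CID (log2FC -1.07, SE 0.12, adjusted p = 0.00159). CXCL1, another, measured 10.02, 9.08 and 8.44 and 7.55, 7.89 and 7.78 (log2FC -1.44, SE 0.33, adjusted p = 0.0425), and its DMSO arrays spread over more than 1 log2 unit. CXCL1 was lost without CID 1, CID 2, CID 3, DMSO 1, DMSO 2, DM 1 or DM 2, at an adjusted p of up to 0.142, and with the DMSO and CID arrays alone (0.0825). Against DM the values of these genes were -1.56 (adjusted p = 0.000236) and -2.19 (adjusted p = 0.00871), and 7 of the 30 ligands were lower DEGs there. The intervals of CXCL8 and CCL2, both uncalled against DMSO, were -1.32 to -0.34 and -1.20 to -0.20, and CXCL8 was a DEG under 4 of the alternatives and CCL2 under 1, the replicate block (adjusted p = 0.0407). CXCL5 passed the p threshold and missed the fold threshold, at -0.54 (adjusted p = 0.0435). CXC chemokines are similar in sequence, and probe sets may share signal.

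The promoters of CXCL1 and CXCL6 are shown because these were the only chemokine DEGs and both hold the site of NF-kB, spelled here as GGG, 2 bases of any kind, TT, any base and CC, on either strand. The same letters were in 7 of the 22 chemokine promoters with an entry (31.8%), in 30.8% of the 26 promoters of the list of NF-kB subunits and targets, and in 5.67% of all promoters. Capitals mark the site in CXCL1 (chr4:73869143-73869442, plus strand, GRCh38.p14) and CXCL6 (chr4:73836428-73836727, plus strand).
CXCL1: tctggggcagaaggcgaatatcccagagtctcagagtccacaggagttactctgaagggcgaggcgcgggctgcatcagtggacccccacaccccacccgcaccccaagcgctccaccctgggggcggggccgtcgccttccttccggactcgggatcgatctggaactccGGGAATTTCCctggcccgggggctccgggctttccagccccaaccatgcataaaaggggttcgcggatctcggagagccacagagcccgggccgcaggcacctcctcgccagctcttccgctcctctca
CXCL6: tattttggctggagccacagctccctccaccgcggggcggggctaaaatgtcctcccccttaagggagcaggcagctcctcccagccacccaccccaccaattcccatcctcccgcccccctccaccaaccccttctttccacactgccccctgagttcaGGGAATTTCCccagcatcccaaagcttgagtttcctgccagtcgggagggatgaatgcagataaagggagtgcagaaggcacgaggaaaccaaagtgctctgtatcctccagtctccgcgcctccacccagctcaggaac

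Interferon-stimulated genes gave 8 lower and 0 higher DEGs of 47 (17%), with a median of -0.18. IFITM3, a membrane protein that blocks viral fusion in endosomes, measured 15.39, 15.48 and 15.47 with DMSO and 14.42, 14.34 and 14.28 with CID (log2FC -1.10, SE 0.11, adjusted p = 0.000668). OAS1, a sensor of double-stranded RNA, fell from 9.14, 8.30 and 8.67 to 7.55, 7.48 and 7.63 (log2FC -1.15, SE 0.18, adjusted p = 0.0081) and IFIT1, which binds viral RNA, from 10.39, 10.68 and 10.52 to 9.58, 9.37 and 9.40 (log2FC -1.08, SE 0.14, adjusted p = 0.00258). Against DM the same genes had log2 fold changes of -0.99, -0.48 and -0.52 (adjusted p = 0.00151, 0.294 and 0.109), and 3 of the 47 were lower DEGs there. OAS1 measured 8.10, 7.93 and 8.07 and IFIT1 10.15, 9.75 and 10.02 on the DM arrays, between the other groups, and DMSO against DM was 0.67 and 0.56 (adjusted p = 0.601 and 0.54). IFITM2, at -0.88 (adjusted p = 0.00245), and IFITM3 are near copies, so that their probe sets may share signal.

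The FGF and EGF, Wnt, Notch, and TGF-beta and BMP lists held 8.11%, 4.44%, 3.85% and 13.6% lower DEGs, beside 1.91% of all named genes. They held 0 higher DEGs, but only 0.662% of all named genes were higher, so that few would be found in lists of this size. FGF7, the fibroblast growth factor that makes keratinocytes grow, measured 14.68, 14.80 and 14.87 with DMSO and 13.42, 13.66 and 13.51 with CID (log2FC -1.25, SE 0.12, adjusted p = 0.000662). It was 1 of 3 lower DEGs among 37 FGF and EGF family genes, and EGFR had an interval of -0.32 to 0.26. Wnt genes gave 2 lower DEGs of 45, and ROR2, a receptor of WNT5A, fell from 9.60, 9.75 and 9.69 to 7.90, 7.95 and 7.79 (log2FC -1.80, SE 0.14, adjusted p = 0.000103). WNT5A itself was at -1.17 (adjusted p = 0.0127), lost without CID 2, DMSO 2 or DMSO 3 (up to 0.0595). JAG1, a ligand of Notch, was the only DEG of 26 Notch genes, at -1.46 (adjusted p = 0.00374). Of 44 TGF-beta and BMP genes 6 fell, led by BMP4 at -1.37 (adjusted p = 0.0311; lost without CID 2, CID 3, DMSO 1, DMSO 2 or DMSO 3, up to 0.106) and NOG, an extracellular BMP antagonist, at -1.07 (adjusted p = 0.0229; lost without CID 1, CID 3, DMSO 2 or DMSO 3, up to 0.0885, and with the DMSO and CID arrays alone, 0.0609). CCN2, a target of TGF-beta and of YAP, was at -1.06 (adjusted p = 0.00813) and CHRDL1, another BMP antagonist, at -0.94 (adjusted p = 0.00257). BMP-4 protein was also a component of DM in all groups.

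Of 19 genes of the IGF axis 3 fell (15.8%) and 1 rose (5.26%), beside 1.91% and 0.662% of all named genes. IGFBP2, a binding protein of insulin-like growth factors, measured 7.80, 9.15 and 7.75 with DMSO and 6.0, 5.72 and 5.84 with CID (log2FC -2.38, SE 0.36, adjusted p = 0.00675), with DMSO array 2 well above the other DMSO arrays. IGFBP5 and IGFBP7 were at -1.60 and -1.43 (adjusted p = 0.00338 and 0.000863). Angiogenic and vascular genes gave 10 lower (27.8%) and 1 higher (2.78%) of 36. The lower ones included S1PR1, a receptor of sphingosine 1-phosphate, which went from 12.78, 12.73 and 12.81 to 11.56, 11.56 and 11.24 (log2FC -1.32, SE 0.13, adjusted p = 0.000709), ADM (adrenomedullin, a vasodilator peptide), at -1.22 (adjusted p = 0.00236), and ENPP2 (autotaxin, which makes lysophosphatidic acid), at -1.21 (adjusted p = 0.0102). ANGPT1, NRP2 and VEGFC, of vessel growth, were at -1.06, -1.09 and -1.0 (adjusted p = 0.00245, 0.00945 and 0.00466). PTGER4, a receptor of prostaglandin E2 named here after its values were seen, was at -1.42 (adjusted p = 0.00279).

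Genes of coagulation, fibrinolysis and kinins went both ways, with 4 higher and 4 lower DEGs of 29 (13.8% each). The shares over all named genes were 0.662% and 1.91%. F3 (tissue factor, which starts clotting) rose from 10.21, 9.98 and 9.69 to 11.18, 11.41 and 11.17 (log2FC 1.29, SE 0.15, adjusted p = 0.00174), and DPP4, a surface peptidase, from 10.92, 10.47 and 10.63 to 11.74, 11.81 and 11.70 (log2FC 1.08, SE 0.16, adjusted p = 0.0063). The bradykinin receptors BDKRB1 and BDKRB2 were at 0.74 and 1.21 (adjusted p = 0.0129 and 0.0334), while the kininases XPNPEP2, given above, and CPM (carboxypeptidase M) were lower, CPM at -1.58 (adjusted p = 0.00143). BDKRB1 was lost without CID 1 (adjusted p = 0.0563) and BDKRB2 without CID 1, CID 2, CID 3, DMSO 1, DMSO 2, DMSO 3 or DM 1 (up to 0.129). SERPINF1 (PEDF, an antiangiogenic serpin) fell from 12.97, 12.40 and 12.28 to 10.92, 11.28 and 10.91 (log2FC -1.51, SE 0.18, adjusted p = 0.00183).

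DM contains retinoic acid and hydrocortisone, and the lists of retinoid genes and of glucocorticoid-induced genes each held DEGs in both directions. Among the called retinoid genes the retinoid-induced ones rose, and the lower one was an enzyme of retinoid synthesis. RDH10, the dehydrogenase of the step from retinol to retinal, measured 15.43, 15.88 and 15.85 with DMSO and 13.78, 13.74 and 13.53 with CID, 4.10-fold lower (log2FC -2.04, SE 0.19, adjusted p = 0.000646). RARB, a retinoic acid receptor that retinoic acid induces, rose from 4.42, 3.99 and 4.36 to 5.99, 5.22 and 5.43 (log2FC 1.29, SE 0.24, adjusted p = 0.0183), and TGM2 (tissue transglutaminase), also retinoid-induced, was at 1.19 (adjusted p = 0.0221). RARB was lost without CID 1, CID 3, DMSO 2 or DMSO 3 (adjusted p up to 0.0789) and TGM2 without CID 1, CID 2, CID 3, DMSO 2 or DMSO 3 (up to 0.0881) and with the DMSO and CID arrays alone (0.0535). All RARB values with DMSO lay under 5.40, the upper limit of the dimmest 33.3% of probe sets, so that the size of its difference is uncertain. Of 24 retinoid genes these were the only DEGs. Of 23 glucocorticoid-induced genes 5 fell (21.7%) and 2 rose (8.7%), beside 1.91% and 0.662% of all named genes. MAOA (monoamine oxidase A) was at -1.59 (adjusted p = 0.0127), lost without CID 3 or DMSO 3 (up to 0.0611). FAM107A was at -1.65 (adjusted p = 0.0228), lost without CID 1, CID 2, CID 3, DMSO 1 or DMSO 3 (up to 0.0846). PDK4 and ANGPTL4 rose. Against DM, 1 of the 23 was a lower DEG and 2 were higher, beside 1.1% and 0.407% of all named genes. FAM107A was at -1.28 there (adjusted p = 0.0913). Of 21 cyclic nucleotide phosphodiesterases 3 fell against DMSO (14.3%, beside 1.91% of all named genes). PDE3A went from 11, 10.96 and 11.10 to 9.53, 9.26 and 9.45 (log2FC -1.61, SE 0.16, adjusted p = 0.000685).

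In the lists of the Rab7 route itself, 0 to 8.82% of the measured genes were DEGs, beside 2.57% of all named genes. Of 33 Rab7 effectors and regulators 1 was a DEG (3.03%), CHML (a Rab escort protein), at -0.89 (adjusted p = 0.0129; lost without CID 2 or DMSO 2, up to 0.0555). RILP, the effector that links Rab7 to dynein, had an interval of -0.46 to 0.20. Of 52 other Rab genes 1 was a DEG (1.92%), RAB30 of the Golgi, at -0.71 (adjusted p = 0.0198; lost without CID 1, CID 2, CID 3, DMSO 1 or DMSO 2, up to 0.0798). Of 43 lysosomal enzymes and membrane proteins 2 fell (4.65%): CTSC (cathepsin C) measured 14.89, 14.99 and 14.92 with DMSO and 14.15, 14.08 and 14.16 with CID (log2FC -0.80, SE 0.12, adjusted p = 0.00602), and LIPA is given above. The lysosomal membrane protein LAMP1 had an interval of -0.15 to 0.41, and CTSD (cathepsin D) of 0.12 to 0.70. V-ATPase subunits, which acidify lysosomes, gave 0 DEGs of 20, a list too short to differ from the 2.57% of all named genes. Of 46 autophagy genes SQSTM1 rose and MAP1LC3A, an LC3 isoform, fell, from 7.78, 8.29 and 7.72 to 7.15, 6.82 and 7.03 (log2FC -0.93, SE 0.17, adjusted p = 0.0166; lost without CID 2 or CID 3, up to 0.0668). Of 34 clathrin and adaptor genes 1 rose and 2 fell, with STON2 (stonin 2, an endocytic adaptor of synaptic vesicles) going from 5.92, 5.62 and 5.69 to 6.63, 7.34 and 7.27 (log2FC 1.34, SE 0.21, adjusted p = 0.0077) and DNAJC6 (auxilin, which uncoats clathrin vesicles) from 7.99, 8.65 and 8.78 to 7.27, 7.03 and 7.33 (log2FC -1.26, SE 0.20, adjusted p = 0.00709). For TFEB, the regulator of lysosomal genes, the probe set was among the dimmest, at 2.55, 2.72 and 2.78 with CID, where a change is hard to see. Ribosomal proteins gave 0 DEGs of 28 and the cell cycle list 1 of 56, where few calls would be found at the share of all named genes.

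Of the 44 keratinocyte markers measured, 13 basal and 31 differentiated, 0 were DEGs, beside 2.57% of all named genes. At that share few calls would be found among 44 genes, so that the count alone says little about these markers. By limma 5 were at an unadjusted p under 0.05, and the lowest adjusted p was 0.0698, that of PERP (a desmosomal protein) at 0.50. KRT5 and KRT14, the keratin pair of the basal layer, had log2 fold changes of -0.15 (95% interval -0.56 to 0.27) and 0.15 (-0.28 to 0.59). FLG (filaggrin) was at 0.04 (-0.33 to 0.41), IVL (involucrin) at -0.07 (-0.50 to 0.36) and VIM (vimentin, an intermediate filament of mesenchymal cells) at -0.14 (-0.37 to 0.09). For 30 of the 44 markers the interval lay within 1.5-fold in both directions, and for the other 14 a change of that size cannot be set aside. For a dim probe set a narrow interval does not set such a change aside either, since RMA compresses differences there. The count of DEGs also depends on which genes were listed. Outside the lists, the desmosomal gene DSP was a higher DEG and the epidermal gene DMKN a lower one. Both calls were lost without some arrays, as given under the other observations. This limit of brightness is wide, since 31 of the 44 lay in the dimmest 33.3% of probe sets, where a change may not show. The log2 of their summed linear signal was 14.60 to 14.98 with DMSO and 14.58 to 14.94 with CID for the basal list, and 10.33 to 10.37 against 10.42 to 10.44 for the differentiated list. The sums of the differentiated list did not overlap, CID being higher, but with DM they ran from 10.23 to 10.43, and 23 of its 31 markers were among the dimmest.

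**Figure D5:**
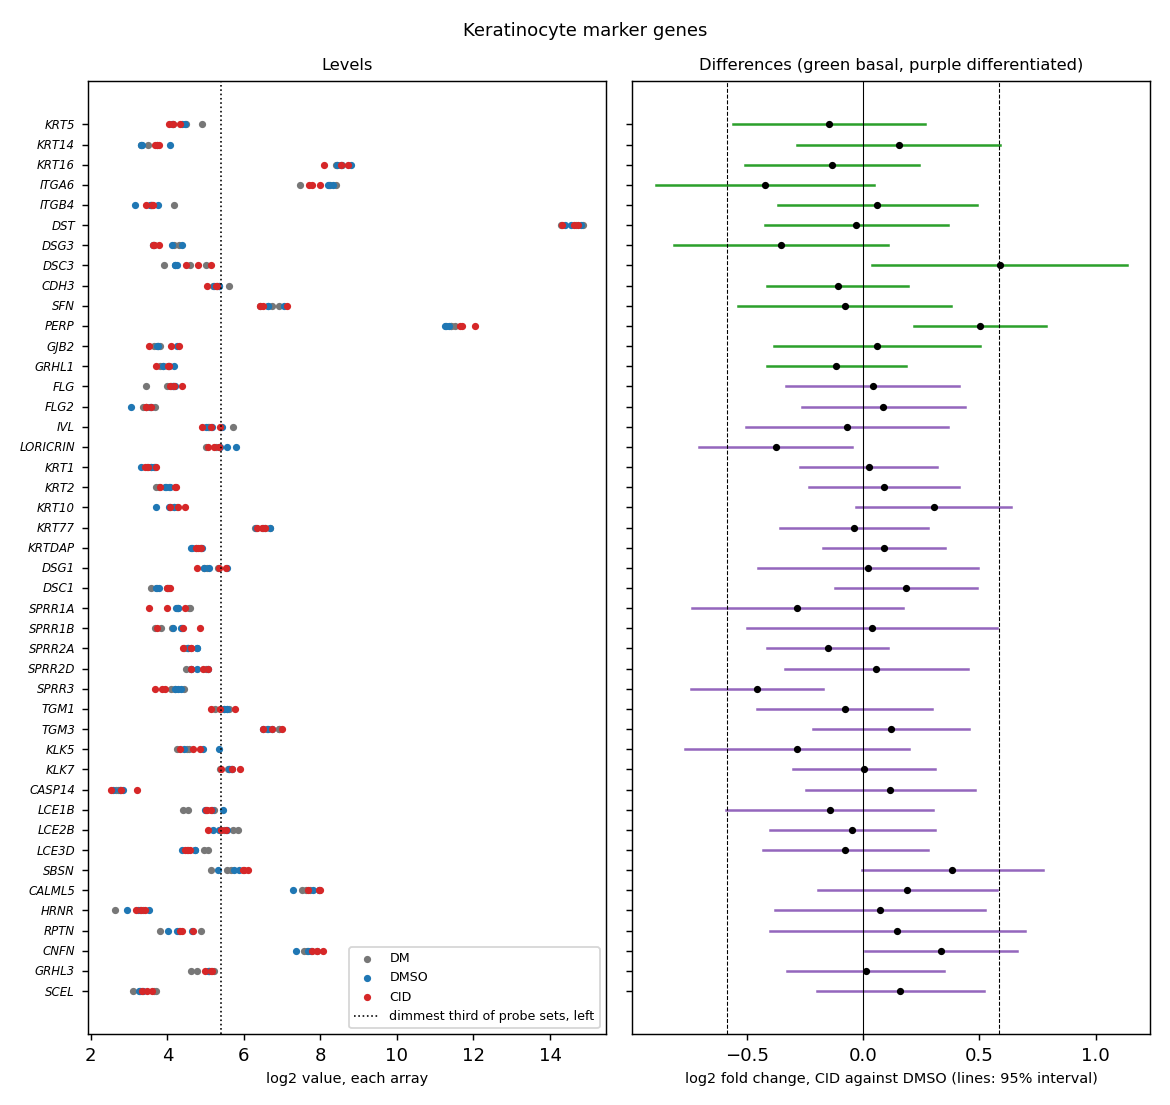
Log2 fold change of CID against DMSO for 13 basal (green) and 31 differentiated (purple) keratinocyte markers in the right panel, with lines for 95% intervals and dashed lines at 1.5-fold, and the log2 value on each array in the left panel, with a dotted line at the upper limit of the dimmest 33.3% of probe sets. The differences run from -0.46 to 0.59, and 30 intervals lie within 1.5-fold in both directions.

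Of 25 markers of mesenchymal stem cells 3 were DEGs (12%, beside 2.57% of all named genes), with a median log2 fold change of -0.20, and in 17 (68%, beside 21.9% of all named genes) the CID and DMSO arrays did not overlap. ENG and CD44 were not called, with intervals of -0.17 to 0.38 and -0.35 to 0.24. PDGFRA and PDGFRB fell, from 15.78, 15.64 and 15.96 to 14.95, 14.93 and 15.12 (log2FC -0.79, SE 0.13, adjusted p = 0.00843) and from 15.33, 15.30 and 15.28 to 14.69, 14.49 and 14.43 (log2FC -0.77, SE 0.12, adjusted p = 0.00636), while DPP4 rose. The log2 of the summed signal of the 25 was 19.60 to 19.63 with DMSO and 19.32 to 19.38 with CID, which do not overlap. Fewer cells of a type and less RNA per cell cannot be told apart in such bulk samples. EPCAM and CDH1, defining markers of simple epithelium, lay among the dimmest probe sets, at 3.63, 3.19 and 3.57 and 3.95, 3.43 and 3.49 with CID. Simple epithelial (21 measured), osteoblast (10), chondrocyte (12), endothelial (12) and leukocyte (16) markers gave 0 DEGs each. Each of these lists is too short to differ from the 2.57% of all named genes, so that the counts say little about the markers. The log2 of the summed simple epithelial signal was 11.53 to 11.73 with DMSO and 11.80 to 11.89 with CID, higher and without overlap, but 11.67 to 11.96 with DM, and 10 of its 21 markers were among the dimmest. The chondrocyte sum ran from 13.67 to 14.26 with DMSO and from 13.19 to 13.50 with CID, also apart, with 6 of its 12 markers among the dimmest. The sums of the osteoblast, endothelial and leukocyte lists overlapped between DMSO and CID. The part of cell composition in the results above was not tested.

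Plain DM showed how far the vehicle itself moved the transcripts. DMSO against DM gave 1 DEG of 21448 (0.00466%) and 1496 probe sets at an unadjusted p under 0.05. That DEG, SGIP1 (an endocytic adaptor that promotes clathrin coat assembly), measured 8.10, 8.33 and 7.98 with DM, 6.63, 6.52 and 6.87 with DMSO and 7.16, 7.25 and 7.21 with CID. It was -1.46 for DMSO against DM (adjusted p = 0.00796), -0.93 for CID against DM (adjusted p = 0.00751) and 0.53 for CID against DMSO (adjusted p = 0.0673). Leaving out DMSO 1, DMSO 2, DM 1 or DM 2 ended its call for DMSO against DM, at adjusted p values of 0.0537 to 0.0883. CID against DM gave 289 DEGs (1.35%), 266 of them named (1.5%), and shares its CID arrays with the comparison described here, so that the sets of calls are not independent. For 424 of the 455 named DEGs against DMSO the CID arrays also lay outside all 6 arrays of DM and DMSO. In all 455 they already lay outside the DMSO arrays, and the share over all named genes was not counted. The 424 are therefore no independent check of the calls. HMOX1 was 3.01 against DMSO and 3.02 against DM, MGP -3.70 and -3.36, TNC -3.62 and -3.09, and FDPS -1.71 and -1.46.

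Of the calls against DMSO, 243 of the 455 named DEGs (68 higher and 175 lower), were not DEGs of CID against DM, and genes were named from these by size. IGFBP2 was -2.38 against DMSO and -1.62 (adjusted p = 0.0625) against DM, PARM1, a mucin-like protein, -1.85 (adjusted p = 0.00945) and -1.26 (adjusted p = 0.0771), and THSD4, a matrix protein that promotes fibrillin assembly, -1.44 (adjusted p = 0.00965) and -0.64 (adjusted p = 0.276). On the higher side, HMGA1, a chromatin protein, was 1.27 (adjusted p = 0.00426) and 0.82 (adjusted p = 0.0546), FOSL1, a subunit of AP-1, 1.17 (adjusted p = 0.00279) and 0.50 (adjusted p = 0.178), and AKR1C2 1.84 and 1.29 (adjusted p = 0.055). FOSL1 measured 11.88, 12.22 and 12.21 on the DM arrays, between 11.48, 11.43 and 11.38 with DMSO and 12.49, 12.41 and 12.90 with CID. The direct test of the controls, DMSO against DM, was not passed by any of them: its log2 fold change was -0.67 for FOSL1 (adjusted p = 0.499), 0.76 for IGFBP2 (adjusted p = 0.735) and 0.79 for THSD4 (adjusted p = 0.608). A call against 1 control and not the other therefore does not show that these controls differ for that gene.

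The study also measured some of these genes by qPCR, staining or protein arrays, which were not analysed here. Of the genes with primers, ITGB8, MGP, HMOX1, COL1A1, COL8A1, FGF7 and VCAM1 were DEGs against DMSO in the values above, each in every fit that left out 1 array. KRT5, KRT14, FLG, VIM and GAPDH were not. The paper gives its qPCR relative to DM, with VIM, KRT5 and KRT14 lower and FLG higher with CID. On the arrays CID against DM was at -0.06 for VIM, -0.34 for KRT5, 0.23 for KRT14 and 0.37 for FLG, and none was called. All of these but VIM are dim probe sets. GAPDH measured 16.75, 16.69 and 16.56 with DMSO and 16.71, 16.61 and 16.69 with CID, with an interval of -0.23 to 0.24. Of genes whose proteins or regulation the study discusses, IL6 had an interval of -0.88 to 0.12, EGF of -0.82 to 0.02, IL32 of -0.05 to 0.88 and EHMT2, a histone methyltransferase, of -0.02 to 0.76, and none was called. The paper's protein arrays measured secreted protein relative to DM, with IL-32 lower and EGF higher with CID. These RNA intervals against DMSO do not test secretion.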

How the data were processed

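Total RNA of 9 samples was measured on Clariom S Human arrays, 3 for each of DM, DMSO and CID. The deposited values are log2 signals that the authors made with RMA in Transcriptome Analysis Console, a method that subtracts background, equalizes the distributions of the arrays and summarises each probe set. The version of the program and the variant of RMA are not given in the sources used, so background correction could not be repeated. RMA compresses differences of dim probe sets. The CID means of OTOGL, ROS1, IGFBP5, LMOD1 and NOG (4.86, 4.96, 4.81, 4.96 and 5.24) lay under 5.40, the upper limit of the dimmest 33.3%. The sizes of their differences are therefore uncertain. From these values group means were fitted over all 9 arrays in limma version 3.58.1 (R version 4.3.3, 6 residual degrees of freedom), with eBayes and Benjamini-Hochberg adjustment over 21448 probe sets. A DEG has an adjusted p under 0.05 and a linear fold change of at least 1.5. The fit was tested on simulated data with known changes before use.

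The platform annotation, which can be old, gave 17709 probe sets 1 symbol and 3739 none. For 20 genes with several probe sets, that of the highest mean value on all 9 arrays was taken. Members and gene lists were chosen with earlier results of these data known, so that no list is independent evidence. The rule for named genes takes the 20 highest and lowest DEGs without overlap between groups, up to 6 DEGs of the largest change per list, the 10 highest and lowest DEGs not called against DM, genes the paper names, the marker lists, RAB7A and any DEG of DMSO against DM. Not all genes it takes are printed, and some uncalled list members are named for contrast. Promoters are RefSeq sequence of GRCh38.p14, matched by symbol.

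Alternatives were other fold and p thresholds, only the arrays compared, no dim probe sets, a trended and robust prior (with statmod version 1.5.0), array weights, quantile normalization again, median centring, cyclic loess, the replicate number as a block (a fixed term), the mean over the probe sets of a gene, an independent samples t-test that the methods name (the methods' t-test) and leaving out each array. A few genes are not reported here. Figures were drawn with matplotlib version 3.10.9.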

Additional observations from a re-analysis of the deposited data

How the results depend on the processing

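The count of 517 DEGs (143 higher, 374 lower) moved with the thresholds and the number of arrays. It was 53 (8 higher, 45 lower) at a log2 fold change of at least 1.5, 199 (37 and 162) at a linear fold change of at least 2 and 206 (43 and 163) at an adjusted p under 0.01. The methods' t-test, which uses the spread of each gene alone, gave 753 probe sets at its unadjusted threshold with the fold threshold and 21 (4 and 17) after Benjamini-Hochberg adjustment. Without 1 array the count ran from 264 (without CID 3) to 493, with 65 to 136 higher and 194 to 357 lower. The 1 DEG of DMSO against DM became 0 at a log2 fold change of at least 1.5, with only the arrays compared and by the methods' t-test, 5 with the trended and robust prior, and 0 to 1 without 1 array. All other settings kept the 3 counts within 1.5 times.

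Replicate numbers are shared by the groups in the labels, but nothing says what a number marks. Same-numbered CID and DMSO arrays had correlated deviations of 0.065 to 0.068, below the 0.1 set for a pairing, although each correlated best with its own number. With the replicate number as a block there were 507 DEGs and 0 for DMSO against DM.

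Of 175 genes named, the 137 called ones kept their direction under all alternatives. The methods' t-test ended 128 of these calls, a fit of the DMSO and CID arrays alone 15 and the replicate block 7. The 15 were ABCA1, ACADVL, BGN, CXCL1, CYP51A1, EBP, INSIG1, KLF5, LIPA, LSS, NOG, NR1D2, SREBF2, TGM2 and THBS2, at adjusted p values of 0.0535 to 0.096. Another scaling or array weights ended those of COL1A2, CXCL1, CYP51A1, INSIG1, LIPA, NR1D1 and THBS2, at 0.0503 to 0.096. Of the 137, 46 were not DEGs of CID against DM. Some uncalled values near 0 changed sign. On quantile normalization these were CD44 (0.0167), EGFR (0.0037), PER3 (-0.0081) and VIM (0.0206), with cyclic loess PER3 (-0.0245), with median centring GAPDH (-0.0267) and PER3 (-0.0233), and with array weights PER3 (-0.0126). Without 1 array, log2 fold changes ran from -0.11 to 0.0133 for CD44, 0.0 to 0.26 for CDH1, -0.01 to 0.16 for DBP, -0.14 to 0.0517 for EGFR, -0.25 to 0.16 for EPCAM, -0.05 to 0.12 for FLG, -0.05 to 0.045 for GAPDH, -0.19 to 0.0467 for IVL, -0.38 to 0.12 for PER2, -0.14 to 0.12 for PER3 and -0.10 to 0.02 for TFEB.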

Other observations

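These values lie outside the gene lists and were chosen after they were seen, so they carry no test beyond the fit over all probe sets. Genes of the circadian clock, picked with no list set for them, included 4 DEGs of CID against DMSO, of which 1 was also called against DM. BHLHE41 (DEC2), a repressor of the clock, measured 10.03, 9.89 and 10.20 with DMSO and 11.30, 11.19 and 11.09 with CID (log2FC 1.15, SE 0.14, adjusted p = 0.00183) and kept its call without any 1 array. Against DM it was 1.10 (adjusted p = 0.00352). NPAS2, a clock transcription factor, was at 0.82, and NR1D1 and NR1D2, the REV-ERB repressors, at 0.82 and 0.72 (limma with Benjamini-Hochberg, adjusted p = 0.0176, 0.0468 and 0.0365). NPAS2 lost its call without CID 2, CID 3, DMSO 1 or DMSO 3 (adjusted p up to 0.0736), NR1D1 without CID 2, CID 3, DMSO 1, DMSO 2, DMSO 3, DM 2 or DM 3 (up to 0.156) and NR1D2 without CID 2, CID 3, DMSO 1, DMSO 2, DMSO 3, DM 1, DM 2 or DM 3 (up to 0.122) and with the DMSO and CID arrays alone (0.0785). NR1D1 was also lost after quantile normalization, cyclic loess and median centring (adjusted p = 0.0539, 0.0572 and 0.0544). Against DM, NPAS2, NR1D1 and NR1D2 were at 0.51, 0.34 and 0.57 (adjusted p = 0.154, 0.501 and 0.129), and the CID arrays of NR1D1 overlapped those of DM. PER2, PER3, DBP, CLOCK, CRY1 and CRY2 were not called, with intervals of -0.64 to 0.30, -0.30 to 0.32, -0.23 to 0.39, -0.13 to 0.41, -0.61 to 0.13 and -0.11 to 0.39 on the log2 scale.

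Epithelial genes outside the marker lists went both ways. DSP (desmoplakin, which ties keratin to desmosomes) was higher at 0.66 (adjusted p = 0.0327), lost without CID 1, CID 2, CID 3, DMSO 1, DMSO 2, DMSO 3 or DM 3 (up to 0.119). DMKN (dermokine, secreted by the upper epidermis) was lower at -0.84 (adjusted p = 0.0166) and KLF5, a factor of epithelial growth, at -0.85 (adjusted p = 0.0359). DMKN lost its call without CID 2, CID 3, DMSO 1 or DMSO 3 (up to 0.0703) and KLF5 without CID 1, CID 2, CID 3, DMSO 2, DMSO 3 or DM 2 (up to 0.134) and with the DMSO and CID arrays alone (0.0591). Among enzymes of lipid mediators, LTA4H (leukotriene A4 hydrolase) was higher at 0.86, PTGES (prostaglandin E synthase) at 0.84 and ALOX15B (a lipoxygenase) at 1.02 (adjusted p = 0.0031, 0.00892 and 0.00632). APOD (apolipoprotein D, a carrier of small lipids) was lower at -1.33 and NPR3, the clearance receptor of natriuretic peptides, at -1.43 (adjusted p = 0.00137 and 0.00257).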
